A study of Homo sapiens with 6 samples.

Results

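The 10 genes described here encode the main enzymes that add or remove methyl groups at lysine 4 of histone H3 (H3K4), and were taken from 24135 genes with an annotated transcription start site (TSS). Of these, 6 are methyltransferases, called writers (KMT2A, KMT2B, KMT2C, KMT2D, SETD1A and SETD1B), and 4 are demethylases, called erasers (KDM1A, KDM5A, KDM5B and KDM5C). They were chosen by function and not by any measured value, although earlier results of these data were known. A called region was assigned to a gene where it came within 1 kb of an annotated TSS of that gene. Chromatin immunoprecipitation-sequencing (ChIP-seq) of H3K27 acetylation (H3K27ac) and H3K4 trimethylation (H3K4me3) was carried out in HSC3 cells, an established human oral squamous cell carcinoma line. The compared cells had been transfected for 72 h with either a control siRNA (siCONT) or an siRNA against the long noncoding RNA DLEU1 (siDLEU1), and each siRNA and mark had 1 library. The study asked which genes change in their histone marks once DLEU1 is depleted. Because a single line, a single siRNA against DLEU1 and a single library per condition were used, the differences below could not be set against replicate error, and p-values were not computed.

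H3K4me3 marks the nucleosomes on either side of active and poised promoters, and H3K27ac marks active promoters and enhancers. SETD1A and SETD1B carry out most trimethylation at active promoters, KMT2A (MLL1) and KMT2B (MLL2) act at selected promoters such as those of developmental genes, and KMT2C (MLL3) and KMT2D (MLL4) monomethylate H3K4 at enhancers. KDM1A (LSD1) removes mono- and dimethyl groups within the CoREST complex, and the KDM5 proteins remove di- and trimethyl groups. KMT2C and KMT2D are frequently mutated in squamous carcinomas. The values below concern the marks at the promoters of these genes, and neither their transcripts nor the activity of the enzymes was analysed here.

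Stretches from 4 of the promoters are shown because they lie where the called regions stop or were lost. They were chosen after the values were seen. KMT2A had the strongest narrowing of its H3K27ac regions, KMT2B had the highest H3K27ac ratio of the 10 genes, and KDM1A and KDM5C had the lowest. Each is the 200 bases just before the most upstream TSS within 1 kb of the canonical TSS, read 5′ to 3′ along the strand of the gene, with no annotated exon inside, from GRCh37. The positions are chr11:118306971-118307170 on the plus strand for KMT2A, chr19:36208675-36208874 on the plus strand for KMT2B, chr1:23345736-23345935 on the plus strand for KDM1A and chrX:53254605-53254804 on the minus strand for KDM5C. Capitals mark matches to a GC box (GGGCGG, bound by SP and KLF factors), the ETS core (CCGGAA) or a part of the NRF1 site (GCGCATG) on either strand, where adjoining or overlapping matches run together.
KMT2A: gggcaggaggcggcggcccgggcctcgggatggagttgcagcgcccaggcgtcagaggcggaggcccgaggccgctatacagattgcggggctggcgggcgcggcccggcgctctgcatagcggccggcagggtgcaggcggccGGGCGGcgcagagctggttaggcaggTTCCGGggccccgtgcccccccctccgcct
KMT2B: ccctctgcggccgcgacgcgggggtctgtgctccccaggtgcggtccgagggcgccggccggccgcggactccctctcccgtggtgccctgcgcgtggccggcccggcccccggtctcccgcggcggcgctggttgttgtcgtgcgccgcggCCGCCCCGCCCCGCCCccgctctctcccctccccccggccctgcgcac
KDM1A: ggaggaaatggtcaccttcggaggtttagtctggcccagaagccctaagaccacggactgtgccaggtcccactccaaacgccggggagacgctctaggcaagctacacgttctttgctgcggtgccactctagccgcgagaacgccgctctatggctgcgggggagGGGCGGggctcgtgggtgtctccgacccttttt
KDM5C: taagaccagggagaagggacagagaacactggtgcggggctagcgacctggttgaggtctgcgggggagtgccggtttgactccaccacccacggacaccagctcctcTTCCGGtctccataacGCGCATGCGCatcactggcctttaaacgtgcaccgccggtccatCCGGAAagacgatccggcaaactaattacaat

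The KMT2A window lay in the gap between the called regions of both H3K27ac lists, with 0 of its bases inside a region. The KMT2B window lay in a similar gap, with 10 bases inside a siCONT H3K27ac region and 0 inside a siDLEU1 one. At KDM1A these numbers were 43 and 0. The KDM5C window behaved differently, since all 200 bases lay inside the siCONT H3K27ac region and none inside the siDLEU1 one, whereas all 200 lay inside the H3K4me3 region in both siCONT and siDLEU1 cells. Its capitals include 2 matches each to the ETS core and to the NRF1 part, the latter forming a palindrome. KDM5C was the only one of the 10 genes with the NRF1 part, which was present in 3.63% of 24020 windows of this length over all genes. A GC box was found at 8 of the 10 genes (all except SETD1B and KDM5C) and in 45.2% of all windows, the ETS core at KMT2A and KDM5C and in 13.3%, and the YY1 letters AAGATGG at none of the 10 and in 2.74%. The median GC content of the 10 windows was 69.0%, compared with 60.0% over all genes, and the median number of CG dinucleotides was 18.5, compared with 11. It ranged from 58.5% at KDM5C to 83.0% at KMT2B. These matches are descriptions of letters and not of bound sites.

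Across the series, the lists held 19705 (siCONT) and 17672 (siDLEU1) H3K27ac regions and 58582 and 56943 H3K4me3 regions. The depth recovered from the deposited values was 21.5 M and 29.4 M reads for H3K27ac and 28.4 M and 22.3 M for H3K4me3. All 5 squamous epithelial genes examined (KRT5, KRT14, KRT6A, TP63 and CDH1) had a region at a TSS in each list, and all 3 blood genes (PTPRC, CD3E and CD79A) had none. The DLEU1 promoter itself kept its rank (H3K27ac percentile 86.3 and 87.2), but an siRNA acts on the RNA, so this does not test the knockdown. In a bulk ChIP, a smaller share of cells that carry a mark and less of the mark per cell cannot be told apart.

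All 10 genes had a region of both marks at a TSS in both siCONT and siDLEU1 cells, and none lost its regions. Over all genes, 56.3% (siCONT) and 53.3% (siDLEU1) had an H3K27ac region, and 56.7% and 56.4% had an H3K4me3 region. Loss of every H3K27ac region in siDLEU1 cells occurred at 5.62% of the genes that had one, and loss of every H3K4me3 region at 3.24%. The smallest margin was at KDM5C, whose siDLEU1 H3K27ac region had a −log10 q of 8.88, compared with 25.6 in siCONT cells.

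Because fold enrichment is not comparable between the lists, each gene is described first by the percentile rank of its strongest region, where 100 is the strongest region of the list. At H3K27ac, the ranks of most writers and of the erasers changed in opposite directions. The median percentile was 81.1 in siCONT and 83.9 in siDLEU1 cells for the writers, and 94.5 and 78.6 for the erasers. By these medians, the erasers lay above the writers in siCONT cells and below them in siDLEU1 cells. The single genes were not separated in either, with KDM5C at 46.1 in siCONT cells and SETD1A at 57.0 in siDLEU1 cells. Of the 6 writers, 5 ranked higher in siDLEU1 cells, while all 4 erasers ranked lower. Over all genes, 37.2% ranked higher and 62.8% lower. The changes ranged from -1.29 to 16.0 points among the writers (median 3.57) and from -17.4 to -9.55 points among the erasers (median -15.9), so that the ranges did not overlap. This split of the summary values was made after the data were seen, so the gap is a description and not a test. The median over all genes was -4.60 points, and so lay between the ranges of the writers and erasers. A change of at least 10 points downwards was found at 3 of the 10 genes (KDM1A, KDM5A and KDM5B), compared with 36.9% of all genes, and a change of at least 10 points upwards at SETD1A alone, compared with 16.7%. In siCONT cells, KDM1A (91.0), KDM5A (98.1), KDM5B (98.1) and the writer KMT2D (90.8) already ranked too high to rise by 10 points. KDM5C (46.1) and the other writers (41.0 to 86.7) started lower, and the median over all genes was 71.0. The part of the starting rank in these directions was not tested. When the same regions were ranked by the number of fragments at the summit in place of fold enrichment, the ranges of the writers (-5.98 to 5.13) and erasers (-26.8 to -2.68) overlapped. By fragments in siDLEU1 cells, the writers stood at percentiles of 43.2 to 84.8. KDM5A and KDM5B stood above them (91.5 each), KDM5C below them (25.1) and KDM1A among them (63.1).

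**Figure D1:**
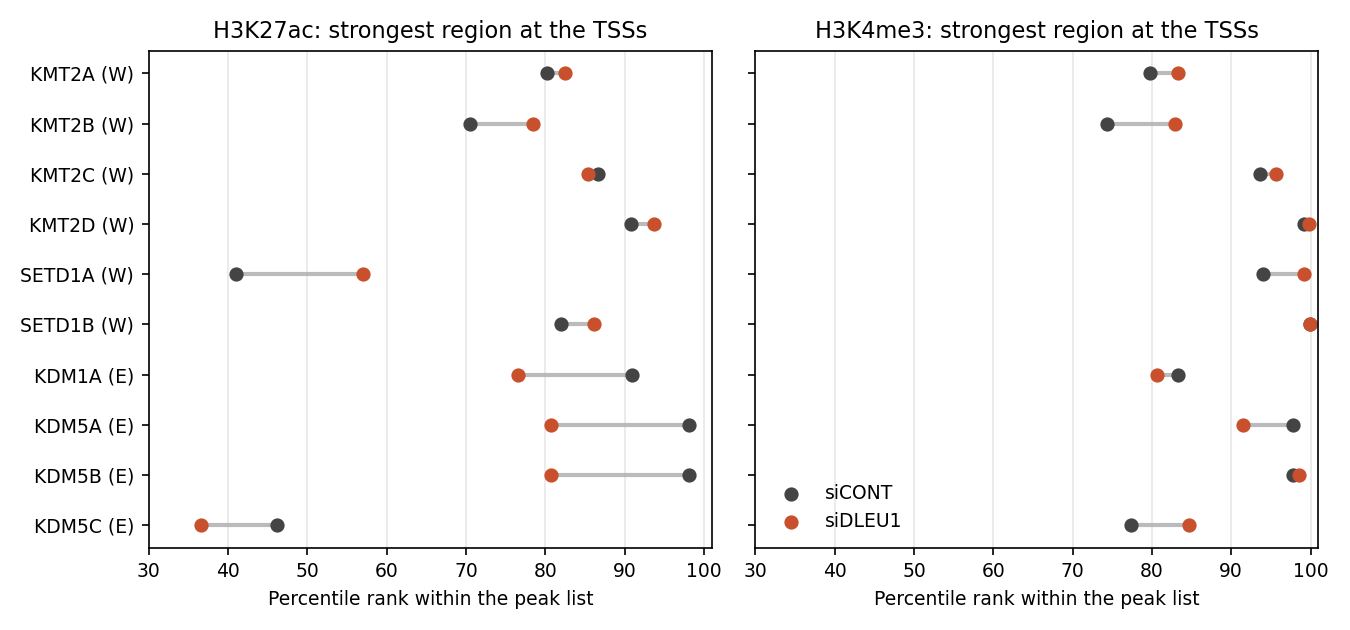
Percentile rank of the strongest region at the TSSs of each gene (x axis, 100 is the strongest region of the list) for H3K27ac (left) and H3K4me3 (right), with 1 point per library, grey points for siCONT, orange points for siDLEU1, W for writers and E for erasers. For H3K27ac, the orange points lie left of the grey ones at the 4 erasers and right of them at 5 of the 6 writers, and for H3K4me3 no gene moved by 10 points in the lists as deposited (5 did under a −log10 q limit of 10).

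The number of fragments over the highest summit of each gene, recovered from the deposited fold enrichment and p-value, gives a second measure with a known counting error. Divided by the recovered reads, it was lower in siDLEU1 cells at all 10 genes for H3K27ac, with ratios from 0.431 at KDM5C to 0.674 at KMT2B. The median was 0.569, compared with 0.580 over all genes, where the 5th to 95th percentiles were 0.454 to 0.777. A ratio at least 1.5 times lower was found at 9 of the 10 genes (all except KMT2B), compared with 81.7% of all genes, and none was 1.5 times higher, compared with 0.0468%. The 95% interval of each ratio, which covers counting error only, included the median over all genes at every one of the 10 genes. A departure of any single gene from the median ratio over all genes was therefore not detectable at this depth. Summed over the 6 writers, the fragments numbered 634 and 526, a ratio of 0.606 (95% interval 0.539 to 0.681). Over the 4 erasers they numbered 525 and 369, a ratio of 0.513 (0.448 to 0.588). These intervals overlap between 0.539 and 0.588.

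**Figure D2:**
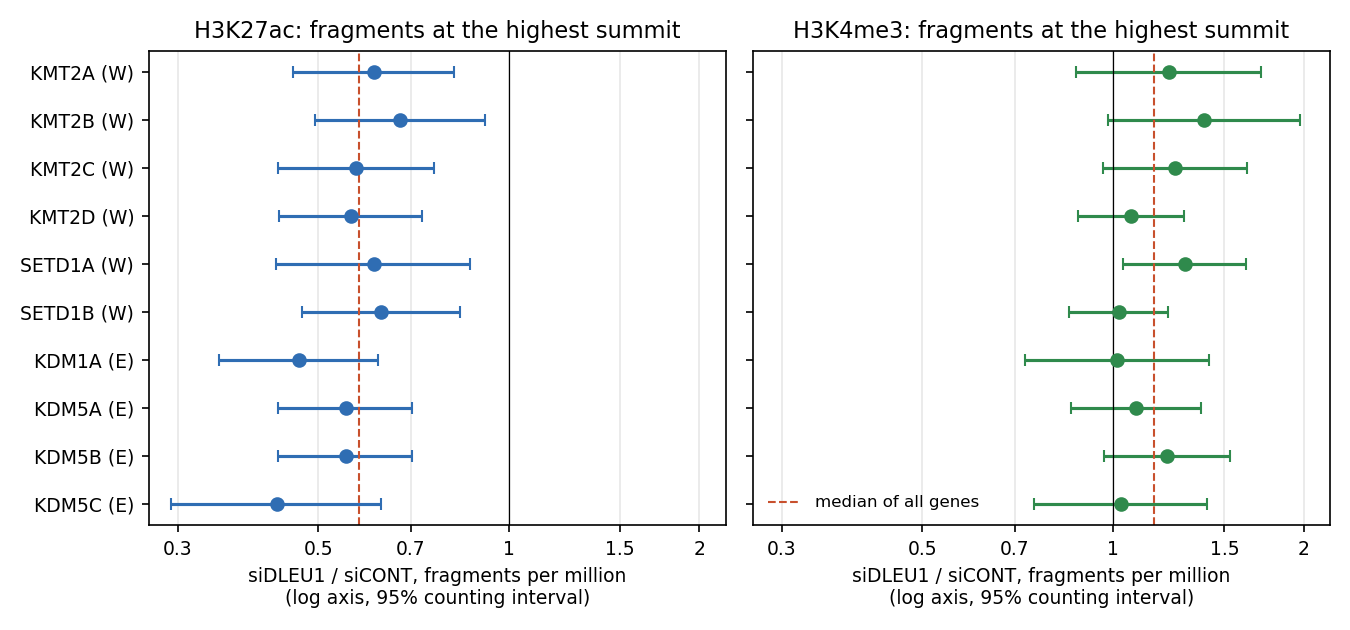
Ratio of recovered fragments, divided by library size, at the highest summit, siDLEU1 over siCONT (log axis), for H3K27ac (left) and H3K4me3 (right), with 95% intervals for counting error as bars and the median over all genes as a dashed line. Every bar crosses the dashed line, which stands at 0.580 for H3K27ac and 1.16 for H3K4me3.

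For H3K4me3, the writers and the erasers were not separated. The change in rank ranged from -0.100 to 8.49 points among the writers and from -6.33 to 7.36 points among the erasers, and these ranges overlapped. In the siCONT list as deposited, KMT2C, KMT2D, SETD1A, SETD1B, KDM5A and KDM5B ranked at 93.7 to 100, so they could not rise by 10 points. The median over all genes was 83.2. None of the 10 genes moved by 10 points, compared with 19.1% of all genes downwards and 18.4% upwards. This count depends on the threshold of the lists, since with only regions of a −log10 q of at least 10 it was 5 genes, with changes of 22.3 points at KMT2B, 19.4 at KDM5C, 11.9 at SETD1A, 10.9 at KMT2A and -13.0 at KDM5A, and with regions stitched KMT2B changed by 10.8. Of the 10 genes, 7 ranked higher and 3 lower (SETD1B, KDM1A and KDM5A), compared with 51.9% and 48.1% of all genes. KDM1A and KDM5A were thus the only erasers, and SETD1B the only writer, with a lower rank. The fragment ratio ranged from 1.02 at KDM1A to 1.39 at KMT2B, with a median of 1.15 compared with 1.16 over all genes. No gene was at least 1.5 times higher or lower, compared with 13.6% and 2.59% of all genes. The summed ratio was 1.15 (1.05 to 1.26) for the writers and 1.11 (0.969 to 1.26) for the erasers. SETD1B enters the rank changes and the writer sum through a region whose summit lies nearest the lncRNA LINC01089. The region with its summit in SETD1B ranked at 94.0 in siCONT and 84.1 in siDLEU1 cells, with a fragment ratio of 0.777. Relative to library size, the median ratios at these promoters were therefore close to those over all genes, below 1 for H3K27ac and above 1 for H3K4me3. With 1 library each, a change in a mark and a difference in pull-down efficiency between the libraries cannot be told apart.

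H3K27ac regions were narrower in siDLEU1 cells at 8 of the 10 genes, compared with 93.6% of all genes with regions in both lists. The exceptions were KMT2D and SETD1A. The median ratio of summed width was 0.789, compared with 0.785 over all genes. Narrowing of the called H3K27ac regions was thus general, and the median of the 10 genes was close to that of all genes. With 1 library each, it cannot be told apart from a difference in enrichment between the libraries. Narrowing by at least 1.5 times was found at KMT2A and KDM5C, compared with 26.7% of all genes, and no gene widened by as much, compared with 0.32%. H3K4me3 regions were narrower at 6 of the 10 genes, compared with 68.6%, and none narrowed or widened by 1.5 times, compared with 12.5% and 4.95%. The median H3K4me3 width ratio was 0.985, compared with 0.910 over all genes.

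The layout of the regions differed between the promoters. KMT2A, KMT2B, SETD1B and KDM1A had separate regions upstream and downstream with a gap at or near the canonical TSS, KMT2C had 4 separate regions, and KMT2D, SETD1A, KDM5A, KDM5B and KDM5C had 1 main region that covered the TSS in all 4 lists. For H3K27ac, the canonical TSS lay inside a region at 7 of the 10 genes in siCONT cells, compared with 69.8% of all genes with a region, and at 6 in siDLEU1 cells, compared with 48%. For H3K4me3, it did so at 7 (53.2%) and 8 (60.7%) of the 10 genes. At least 2 H3K27ac regions were called at 5 of the 10 genes in siCONT cells, compared with 39.3% of all genes with a region, and at 6 in siDLEU1 cells, compared with 44.8%. For H3K4me3, these numbers were 6 (61.3%) and 5 (55.2%). The only genes that switched were SETD1A, through a small region about 0.8 kb downstream that was called in the siDLEU1 H3K27ac and siCONT H3K4me3 lists, and KMT2C and KDM1A, whose region edges lay within 26 bp of the TSS.

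Each gene had the same number of annotated TSSs within 1 kb of a region in all 4 lists. This was 17 of 36 TSSs at KDM5B, 13 of 19 at KDM5C, 12 of 50 at KMT2C, 9 of 26 at KMT2A, 5 of 11 at KDM5A, 3 of 22 at KMT2B and 1 of 25 at KMT2D. At SETD1A it was 5 of 6, at SETD1B 3 of 3 and at KDM1A 3 of 13. Marked starts were thus fewer than those without a region nearby at 7 of the 10 genes, the exceptions being SETD1A, SETD1B and KDM5C.

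**Figure D3:**
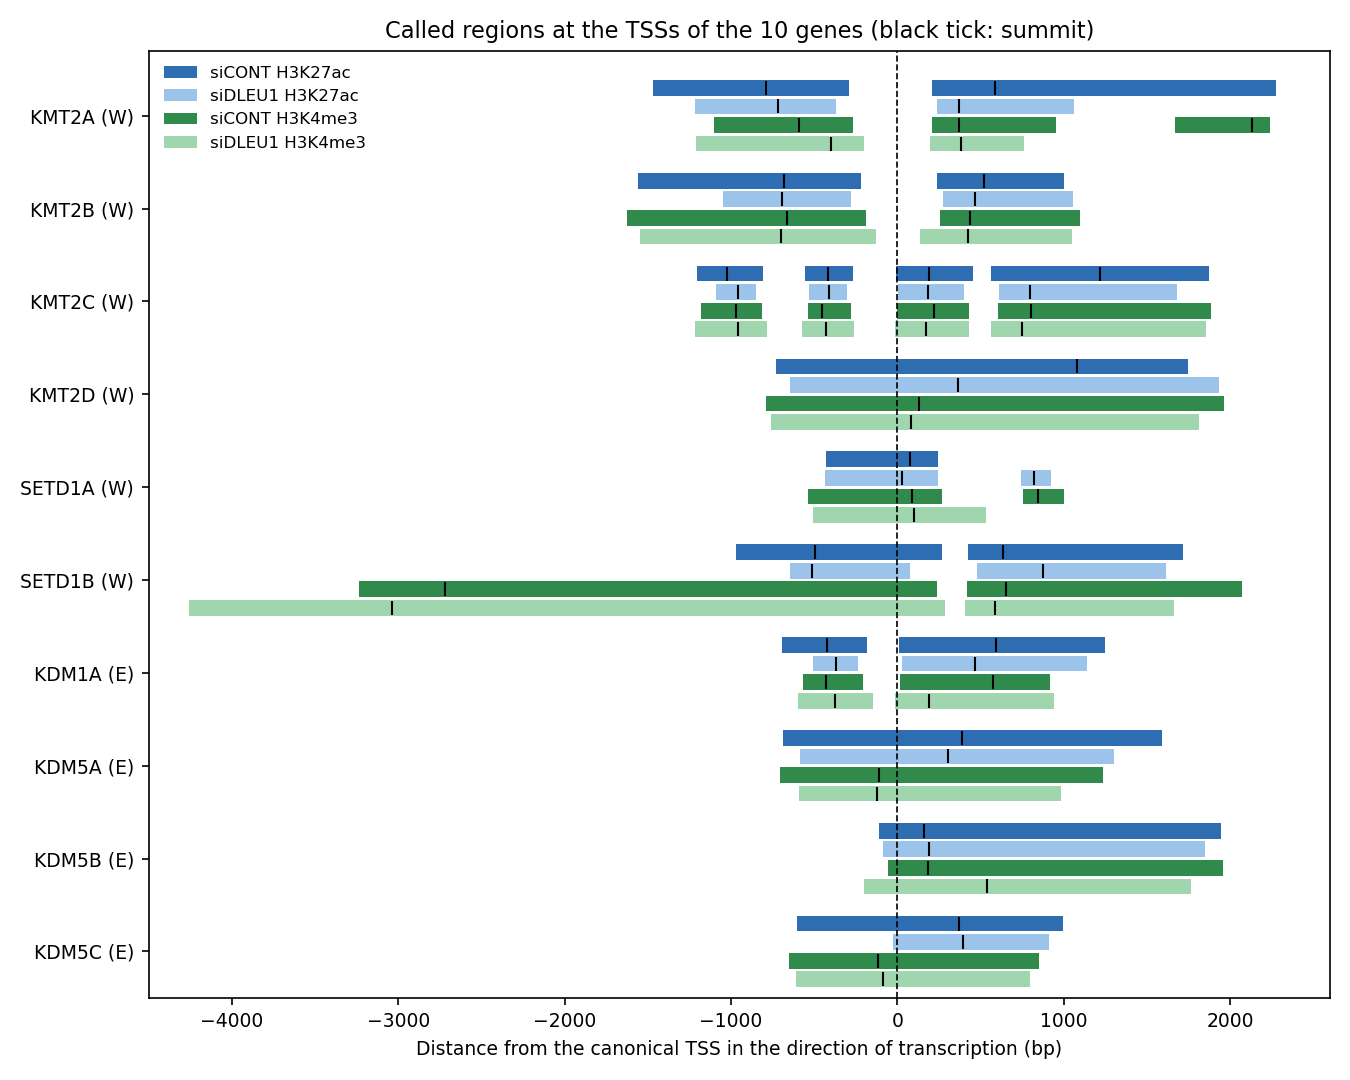
Called regions at the TSSs of the 10 genes against the distance from the canonical TSS in the direction of transcription (x axis, bp), with 4 bars per gene for the 4 lists (blue for H3K27ac, green for H3K4me3, the paler shade for siDLEU1) and a black tick at each summit. The siDLEU1 H3K27ac bars are shorter than the siCONT bars at 8 genes, most visibly downstream of KMT2A and upstream of KDM5C.

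KMT2A encodes the founding mammalian trithorax protein, which is rearranged in acute leukaemias. It lies at chr11:118307171-118397547, and its canonical TSS fell in a gap that in siCONT H3K27ac ran from -289 to 206 bp. The H3K27ac percentile was 80.2 in siCONT and 82.5 in siDLEU1 cells, and the summit held 105 and 88 fragments, a ratio of 0.612 (0.456 to 0.821). Rank was therefore kept, while width was not. The downstream region, which covers the end of exon 1 and the start of intron 1, measured 2073 bp in siCONT and 827 bp in siDLEU1 cells, and the summed width went from 3255 to 1675 bp, a ratio of 0.515. For H3K4me3, the percentile was 79.8 and 83.3, with 76 and 73 fragments. The siCONT list held a further H3K4me3 region of 571 bp, 1668 to 2238 bp downstream. The siDLEU1 list held a 363 bp region there, which no TSS window reached.

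KMT2B, the closest paralog of KMT2A, lies at chr19:36208875-36229781, with regions on both sides of a gap at the TSS in all 4 lists. H3K27ac ranked at 70.5 in siCONT and 78.5 in siDLEU1 cells, with 90 and 83 fragments, a ratio of 0.674 (0.494 to 0.918), the highest of the 10 genes. Narrowing was confined to the upstream H3K27ac region, which measured 1338 and 770 bp, while the downstream one measured 763 and 780 bp. The H3K4me3 percentile was 74.4 and 82.9, with 66 and 72 fragments. This was the largest upward difference in H3K4me3 rank of the 10 genes (8.49 points), at a ratio of 1.39 (0.981 to 1.97).

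KMT2C (chr7:151832007-152133729, minus strand) encodes the catalytic subunit of an enhancer methyltransferase complex. The strongest region, which covered almost all of exon 1, ranked at 86.7 in siCONT and 85.4 in siDLEU1 cells for H3K27ac, with 117 and 92 fragments, a ratio of 0.574. For H3K4me3 it ranked at 93.7 and 95.6, with 121 and 119 fragments. All 4 regions of this promoter were called in each list, and each H3K27ac region was narrower in siDLEU1 cells, from 463 to 399 bp for the strongest and from 1309 to 1070 bp for the most downstream. KMT2C was the only writer whose H3K27ac rank was lower in siDLEU1 cells (-1.29 points).

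KMT2D, which encodes the other main enhancer methyltransferase, lies at chr12:49412758-49454577 on the minus strand, with a single region over the TSS and the whole of exon 1 (1182 bp). H3K27ac ranked at 90.8 in siCONT and 93.7 in siDLEU1 cells, with 140 and 108 fragments. The H3K4me3 percentile was 99.2 and 99.8, with 241 and 202 fragments. KMT2D thus ranked near the top of both H3K4me3 lists. Its H3K27ac region was one of 2 that did not narrow (2477 and 2578 bp), and the H3K27ac summit lay 1081 bp downstream of the TSS in siCONT and 363 bp in siDLEU1 cells. At the other end of the gene, a region of the siCONT H3K27ac list and one of the siDLEU1 H3K4me3 list had their summits nearest a TSS of the neighbouring gene PRKAG1. The siCONT H3K4me3 list also held a region there, inside the bounds of the siDLEU1 one. It was narrower (327 bp, compared with 1302 bp), and its summit lay nearest a TSS of DDN-AS1.

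SETD1A encodes a promoter methyltransferase. The gene spans chr16:30968615-30995985 and has an antisense lncRNA start 95 bp from one of its own. The H3K27ac percentile was the lowest of the writers, 41.0 in siCONT and 57.0 in siDLEU1 cells, which was also the largest upward difference of the 10 genes. The summit held 74 and 62 fragments, a ratio of 0.612 (0.430 to 0.869), and by fragments the rank went from 49.1 to 43.2. The direction at SETD1A thus depends on the ranking, as it does at KMT2D. The local background that MACS2 estimated at this summit, by which fold enrichment is divided, was 1.12 in siCONT and 0.439 in siDLEU1 cells. For H3K4me3, the percentile was 94.0 and 99.2, with 162 and 165 fragments, a ratio of 1.30 (1.04 to 1.62). The interval excludes 1 but includes the median over all genes (1.16).

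SETD1B, the paralog of SETD1A, lies at chr12:122241915-122270562, and its TSS is 103 bp from a start of the divergent lncRNA LINC01089 and 606 bp from one of RHOF. The H3K27ac percentile was 82.0 in siCONT and 86.1 in siDLEU1 cells, with 108 and 93 fragments, at a summit inside SETD1B. The strongest H3K4me3 region was among the highest of both lists (100 and 99.9), with 281 and 225 fragments, and measured 3477 and 4542 bp. Its summit lay at -2719 bp (siCONT) and -3036 bp (siDLEU1) from the SETD1B TSS, nearest to starts of LINC01089, so these values cannot be assigned to SETD1B alone. The downstream H3K4me3 region, whose summit lies in SETD1B, ranked at 94.0 in siCONT and 84.1 in siDLEU1 cells, with 123 and 75 fragments and widths of 1656 and 1259 bp. The fragment ratio of this region was 0.777 (0.575 to 1.04), which lies below the median of highest summits over all genes (1.16), while that of the wide region was 1.02 (0.852 to 1.22). The intervals of the 2 regions overlap, and the downstream region was singled out after its values were seen.

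KDM1A (chr1:23345936-23410182) encodes a flavin-dependent demethylase. Its H3K27ac percentile was 91.0 in siCONT and 76.6 in siDLEU1 cells, with 127 and 81 fragments, a ratio of 0.466 (0.348 to 0.620). By fragments the rank was also lower, from 82.8 to 63.1. The strongest region lies just downstream of the TSS and covers most of exon 1, and it measured 1239 and 1112 bp. The background at this summit was at the genome level in both lists (0.497 and 0.439), as it was at 2900 genes, whose median change in rank was -4.31 points (5th to 95th percentiles -24.6 to 12.8). H3K4me3 differed less, at percentiles of 83.2 and 80.6 and with 84 and 67 fragments, a ratio of 1.02 (0.726 to 1.42). A smaller upstream region had its summit 1 to 61 bp from the TSS of the divergent gene TEX46.

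KDM5A encodes a demethylase first described as a partner of the retinoblastoma protein. It lies at chr12:389223-498486 on the minus strand and shares its start region with CCDC77, which is transcribed the other way. The H3K27ac percentile was 98.1 in siCONT and 80.7 in siDLEU1 cells, with 160 and 121 fragments, a ratio of 0.552 (0.433 to 0.704). By fragments, however, the rank went only from 94.2 to 91.5. The background at the summit was 0.497 in siCONT and 1.0 in siDLEU1 cells, where 1.0 is the value that a single control read within a fragment length would give. Among the 2176 genes with a background above the genome level in the siDLEU1 list only, the median change in rank was -17.4 points, while their median fragment ratio was 0.582. By fold enrichment, KDM5A also had the largest downward difference in H3K4me3 rank of the 10 genes, from 97.8 to 91.5, with 157 and 134 fragments and a background of 0.532 and 1.0. By fragments, that difference was -0.961 points, smaller than those of KDM1A (-3.42) and KDM5C (-2.77). The H3K4me3 summit lay at -113 (siCONT) and -120 bp (siDLEU1) from the KDM5A TSS, nearest the CCDC77 starts.

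KDM5B encodes a demethylase that is overexpressed in several carcinomas. It lies at chr1:202693623-202777615 on the minus strand, and its region, which begins near the canonical TSS, covered all of exon 1. The H3K27ac percentile was 98.1 in siCONT and 80.7 in siDLEU1 cells, with 160 and 121 fragments and a background of 0.505 and 1.0. These fragment numbers equal those of KDM5A but belong to separate regions on chromosomes 1 and 12. As at KDM5A, the rank by fragments changed little, from 94.2 to 91.5. The H3K4me3 percentile was 97.7 and 98.5, with 157 and 150 fragments. The regions hardly narrowed, from 2057 to 1934 bp for H3K27ac and from 2011 to 1966 bp for H3K4me3. A small H3K4me3 region inside the gene, about 4.8 kb from the TSS, measured 469 bp in siCONT and 200 bp in siDLEU1 cells.

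KDM5C (chrX:53205465-53254604, minus strand) encodes a demethylase that is mutated in X-linked intellectual disability. H3K27ac ranked at a percentile of 46.1 in siCONT and 36.6 in siDLEU1 cells, with 78 and 46 fragments, a ratio of 0.431 (0.293 to 0.628), the lowest of the 10 genes. By fragments the difference in rank was larger, from 51.8 to 25.1. The background moved the other way from that at KDM5A, being 1.0 in siCONT and 0.439 in siDLEU1 cells. The H3K27ac region measured 1596 and 936 bp, and its upstream edge lay at -602 bp from the TSS in siCONT and at -23 bp in siDLEU1 cells, which left the sequence printed above outside. H3K4me3 differed from this, with percentiles of 77.4 and 84.7, 94 and 76 fragments, a ratio of 1.03 (0.751 to 1.41) and an upstream edge at -652 and -607 bp.

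**Figure D4:**
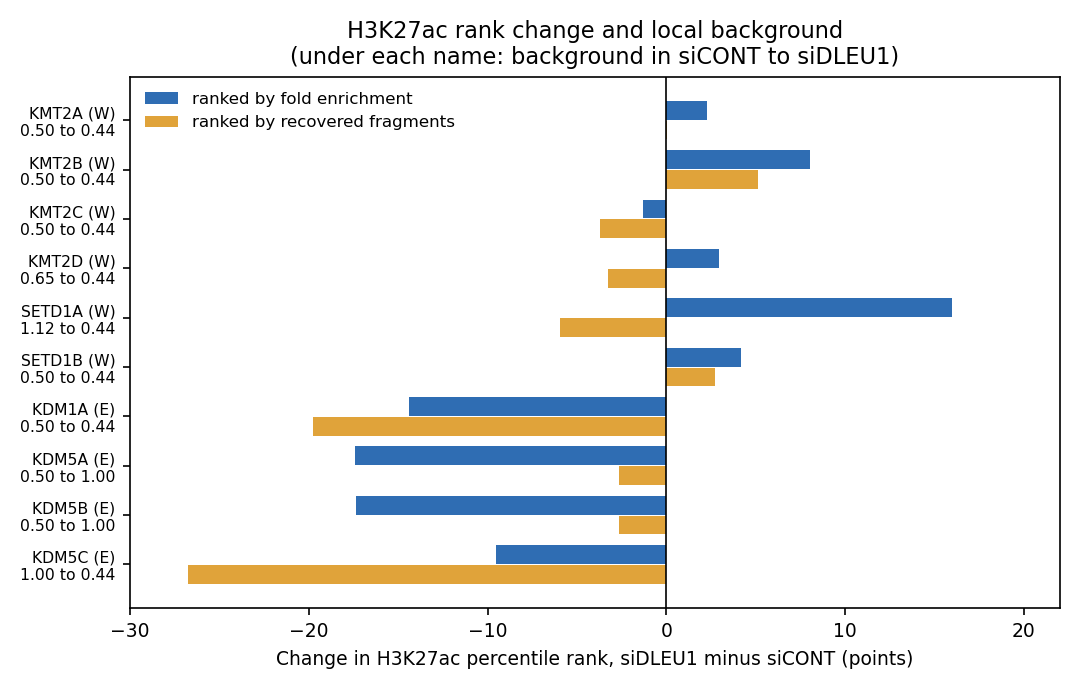
Change in H3K27ac percentile rank, siDLEU1 minus siCONT, in points (x axis), for each gene when regions are ranked by fold enrichment (blue) or by recovered fragments (yellow), with the background at the summit in siCONT and siDLEU1 cells under each name. KMT2C and the 4 erasers are lower by both rankings, KDM5A and KDM5B lie at -17.4 by fold enrichment and -2.68 by fragments, and KMT2D and SETD1A change sign.

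The local background, the number of fragments that MACS2 expects at a summit from its control, on the scale of that control, was above the genome level at 4 of the 10 genes in siCONT and 2 in siDLEU1 cells for H3K27ac (60.4% and 60% of all genes) and likewise at 4 and 2 for H3K4me3 (60.7% and 61.4%). Rank moved with it over all genes. For H3K27ac, the median change in rank was 7.19 points at the 2229 genes with a background above the genome level in the siCONT list only, a group that included KMT2D, SETD1A and KDM5C. It was -17.4 at the 2176 genes above that level in the siDLEU1 list only, which included KDM5A. At the genes at the genome level in both lists, which included KMT2A, KMT2B, KMT2C, SETD1B and KDM1A, it was -4.31. It was -3.38 at the 5527 genes above that level in both, which included KDM5B. The siCONT background at KDM5B (0.505) was only just above the genome level (0.497), and its siDLEU1 background was 1.0, as at KDM5A. The median fragment ratio was 0.570 to 0.583 in all of these groups. Among the 5 members at the genome level in both lists, the 4 writers had changes from -1.29 to 8.01 points and KDM1A, the only eraser, -14.4 points. The part of the local background in the other differences was not tested.

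Within the siCONT cells, the H3K27ac regions of the 10 genes lay largely inside the H3K4me3 regions, with a median of 95.8% of their bases shared (65.5% at KMT2A to 100% at KMT2D and SETD1A). In siDLEU1 cells the median was 91.6% (79.1% at SETD1A to 100% at KMT2C and SETD1B). Read from the H3K4me3 side, the shared part was a median of 97.8% in siCONT and 81.2% in siDLEU1 cells. The difference was widest at KDM5C, where 96.7% of the H3K4me3 bases were also in an H3K27ac region in siCONT cells and 58.4% in siDLEU1 cells, and at KMT2B, where these shares were 91.3% and 66.3%. At SETD1B the share was below 50% in both (48.8% and 32.0%), and the excess was the wide region towards LINC01089.

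Of 42 related genes of the pathway, comprising subunits of the writer complexes, other writers, KDM1B with the CoREST subunits, and readers of H3K4 methylation, 41 had regions of both marks in all 4 lists. The exception was PRDM9, the meiotic methyltransferase, which had none. For H3K27ac, 26 of the 41 ranked lower in siDLEU1 cells and 15 higher (62.8% and 37.2% of all genes), with a median change of -3.32 points. At least 10 points lower were 11 of them and at least 10 points higher 9 (36.9% and 16.7% of all genes). Their H3K27ac regions were narrower at 40 of 41 (93.6% of all genes). For H3K4me3, 14 ranked lower and 27 higher (48.1% and 51.9% of all genes), with a median change of 2.38 points, 4 genes at least 10 points lower and 6 at least 10 points higher (19.1% and 18.4% of all genes). The 4 core subunits (WDR5, RBBP5, ASH2L and DPY30) had a median H3K27ac change of -6.25 points. KDM1B and the CoREST subunits, 9 genes that include partners of KDM1A, had one of 1.77 points. Among these 9 genes, the directions were mixed, with 3 of 9 at least 10 points lower and 3 at least 10 points higher.

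The largest downward difference in H3K27ac rank in the related list was at CXXC1, the CpG-binding subunit of the SETD1 complexes, from a percentile of 54.1 to 3.07, with 68 and 52 fragments and a background of 0.497 and 2.0. RCOR1, the scaffold of the CoREST complex, followed (76.7 to 44.5), with a background of 1.0 in both lists at the region strongest by fold enrichment. Its highest summit held 134 and 121 fragments, a ratio of 0.660, compared with a median of 0.580 over all genes. In siDLEU1 cells, this summit was not that of the ranked region, since 121 fragments over a background of 1.0 gave a percentile of 80.7 at KDM5A. The background of 1.0 therefore does not describe it. The largest upward differences were at NCOA6, a subunit of the KMT2C and KMT2D complexes (36.1 to 87.1), and at ING4, a reader of H3K4me3 (31.0 to 74.4). At both, the background was 3.0 in siCONT cells and near the genome level in siDLEU1 cells, and the fragment ratios (0.591 and 0.526) were near the median over all genes. For H3K4me3, the largest downward differences were at RBBP5 (95.6 to 75.9) and at SMYD3, a SET-domain methyltransferase (79.0 to 60.4). The background at RBBP5 was 0.800 in siCONT and 2.0 in siDLEU1 cells, with a fragment ratio of 1.0, and at SMYD3 it was 0.720 and 1.0, with a ratio of 0.865. The largest upward H3K4me3 differences were again at NCOA6 (61.1 to 93.3) and at BOD1, a relative of the SETD1B complex subunit BOD1L1 (51.2 to 82.2). BOD1 had more H3K4me3 fragments in siDLEU1 cells (53 and 75) despite the lower depth, and a background of 1.0 and 0.558.

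Measured over the percentile ranks in the 4 lists, the related genes nearest to the median of the 10 enzymes were CHD1, a chromatin remodeller that reads H3K4me3 (Euclidean distance 8.10 points), BOD1L1 (8.44 points) and HDAC1, a deacetylase of the CoREST complex (9.45 points). CHD1 had H3K27ac percentiles of 86.1 in siCONT and 77.4 in siDLEU1 cells and H3K4me3 percentiles of 99.4 and 98.1. The medians of the 10 enzymes were 84.3 and 80.7 for H3K27ac and 93.9 and 93.5 for H3K4me3.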

How the data were processed

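HSC3 cells carrying siCONT or siDLEU1 for 72 h were studied by ChIP-seq of H3K27ac and H3K4me3 with 1 library each. Reads from an Ion Proton System were aligned by the authors to hg19 (bowtie2), and peaks were called per library with MACS2, whose settings are not given in the sources used here. The deposited lists hold fold enrichment, a ratio over local background, with −log10 p and −log10 q from MACS2, and a display score that was not used. The 2 input libraries were not analysed here.

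Regions on chromosomes 1 to 22 and X were set against GRCh37, and 0 ended past a chromosome end. For 24135 genes that also have a curated RefSeq transcript under their symbol, every start in GENCODE was taken as a TSS. Overlap meant at least 1 bp with the 1 kb on either side of a TSS. Where a gene had several regions, the strongest by fold gave the rank, and a gene with no region counted as 0. MACS2 computes fold and p from a whole number of fragments at the summit, a scaling factor and a local background. These were solved for, and 100% of the deposited p-values were matched within 0.05 on the log10 scale. Because the same p-values and fold were used to solve for them, this match is not an independent check of the fragments. Read depth, by which fragments were divided, assumes a genome of 2.7 Gb. The shortest regions, taken as the fragment length of MACS2, were 187 (siCONT) and 176 bp (siDLEU1) for H3K27ac and 200 and 186 bp for H3K4me3. Intervals of ratios are exact binomial 95% intervals and cover counting error only. On simulated lists, the fragments of 100% of 7900 peaks were recovered.

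The genes, lists and size limits (10 points, 1.5 times) were chosen with earlier results of these data known. All 10 enzymes are named, as are, from the related list, the 2 largest downward and upward differences per mark and the 3 nearest genes. Alternatives comprised a −log10 q limit of 10, a window of 3 kb, 1 canonical TSS per gene, regions within 1 kb stitched, ranks by −log10 p or by fragments, other widths, and scaling to the median gene. Division by fragment length was added after the data were seen, as was the split of the summary values into writers and erasers. Python 3.11.15, pandas 2.3.3 and scipy 1.17.1 were used.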

Additional observations from a re-analysis of the deposited data

How the results depend on the processing

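No paired analysis was possible because each siRNA and mark has 1 library and no replicate number. With no replicates, single differences rest on 46 to 281 fragments per summit, and a siDLEU1 H3K27ac region at KDM5C has a −log10 q below 10 and is lost under that limit. Of 100 recomputed summary values, 66 stayed within the limits set, 25 moved and 9 changed direction. The cause was not tested. Regions were found at 9 or 10 genes throughout.

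For H3K27ac, the median change in rank of the 10 genes (0.501) became -3.70 with a −log10 q of at least 10, -0.295 with regions stitched and -2.98 by fragments. That of the writers became 1.97 with the q limit, 4.41 by −log10 p and -1.61 by fragments, and that of the erasers -28.3 with the q limit, -21.5 stitched, -13.3 by −log10 p and -11.2 by fragments, so it stayed below 0. The width ratio was 0.828 with the q limit, 0.755 with a 3 kb window, 0.882 stitched, 0.887 for the strongest region only and 0.828 inside the windows. Scaled to the median gene, the fragment ratio was 0.980 for the 10 genes, 1.05 for the writers and 0.877 for the erasers.

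For H3K4me3, the median change in rank became 3.58 with the q limit, 2.24 stitched and 0.474 by fragments for the 10 genes, 8.03, 3.92 and 2.33 for the writers, and -0.328 (q limit) and -1.87 (fragments) for the erasers. The width ratio was 1.01 with the q limit, 0.998 with a 3 kb window, 0.995 with 1 TSS, 0.916 stitched, 1.01 for the strongest region and 0.988 inside the windows. Scaled to the median gene, the fragment ratio was 0.994 for the 10 genes and 0.913 for the erasers.

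Among 358 values of single genes, 22 changed direction. In H3K27ac rank these were KMT2A (-1.73, q limit) and, by fragments, KMT2D (-3.27) and SETD1A (-5.98). In H3K27ac width they were KMT2B (1.02, strongest region) and KMT2D (0.95, inside the windows). Scaled to the median gene, the H3K27ac ratio was 1.06 at KMT2A, 1.16 at KMT2B, 1.05 at SETD1A and 1.08 at SETD1B. In H3K4me3 rank by fragments they were KMT2D (-0.378) and KDM5C (-2.77). In H3K4me3 width they were KMT2B (0.951, stitched), SETD1A (1.30, q limit and strongest region), SETD1B (0.897 stitched, 0.997 inside the windows) and KDM5B (1.0, 3 kb window). The scaled H3K4me3 ratio was 0.921 at KMT2D, 0.880 at SETD1B, 0.877 at KDM1A, 0.938 at KDM5A and 0.889 at KDM5C.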
